A study of Mus musculus with 6 samples.

Results

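Genes made by the yolk sac endoderm and by gut and liver endoderm were followed in somite-level tissue of mouse embryos, from which endoderm had been taken away at dissection. The genes were fixed by name (Afp, Alb, Ttr, Trf, Apoa1, Apoa2, Apoa4, Apob, Apom and Amn), and all probe sets annotated to exactly 1 of these symbols were used. Of the 10 genes, 9 were measured, by 20 of the 22626 probe sets tested. Trf had only a probe set annotated to 2 genes and was left out of the comparison.

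The tissue came from embryos at 9.5 days post coitum that were homozygous for Dll3tm1Rbe (Dll3neo/neo) or wild-type (Dll3+/+). Dll3 encodes a Notch ligand needed for regular segmentation of the somites. All pools were of the c57bl/6 strain per the labels, each joined tissue of several embryos, and the region ran from the otic placode to the last somite formed, without the allantois, the heart or the endoderm. There were 3 Dll3 mutant and 3 wild-type pools, each on 1 Affymetrix MOE430A array. The sources used here give no number of embryos for a pool.

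The visceral endoderm is the outer epithelium of the yolk sac. Before the liver takes over, it makes the plasma proteins of the embryo, packs lipid into lipoproteins, and takes up maternal protein through large endocytic receptors. Many of these genes are switched on later in the liver, and their promoters are classic targets of HNF1, HNF4 and FOXA factors. In bulk tissue, fewer cells of a type and less RNA per cell cannot be told apart.

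Each value is the authors' ratio of a pool to a reference of the probe set itself, most often its median over the 6 pools. A value of 1.2 thus means 20% above that reference, and no level can be compared between genes. For the same reason the tissue label could not be checked against its defining markers, nor could it be read whether endoderm RNA was present in any pool. What could be read is how the endoderm genes varied between pools.

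Of the members, Afp varied most between pools by its gene mean (log2 SD 0.248). That variation was widest in its probe set 1416645_a_at, while its probe set 1436880_at (0.0666) varied less than Alb (0.1185). Promoter sequences of 3 members are shown: Afp, its nearest neighbour on chromosome 5 (Alb), and the apolipoprotein gene with the most probe sets (Apoa1). Each runs 5′ to 3′ from 250 bases before to 50 bases after the start site given by RefSeq (GRCm38.p6), and all 3 lie on the plus strand. Capitals mark letters found on either strand: GTTAAT is an HNF1 motif, TGTTTGC is a motif of FOXA-type factors, and the motif of the TATA box is TATAAA. The marked motifs do not overlap.
Afp (chr5:90490464-90490763): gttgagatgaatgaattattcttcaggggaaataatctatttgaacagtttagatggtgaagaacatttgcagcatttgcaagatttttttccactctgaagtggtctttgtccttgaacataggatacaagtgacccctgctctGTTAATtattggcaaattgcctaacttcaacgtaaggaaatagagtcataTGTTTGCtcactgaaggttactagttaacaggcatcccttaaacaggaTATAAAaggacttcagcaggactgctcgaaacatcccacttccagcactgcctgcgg
Alb (chr5:90460620-90460919): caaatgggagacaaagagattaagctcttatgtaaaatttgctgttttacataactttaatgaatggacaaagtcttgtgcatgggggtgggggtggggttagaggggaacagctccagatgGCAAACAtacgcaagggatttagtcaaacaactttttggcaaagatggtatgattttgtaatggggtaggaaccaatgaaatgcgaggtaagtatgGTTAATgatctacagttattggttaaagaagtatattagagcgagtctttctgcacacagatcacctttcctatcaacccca
Apoa1 (chr9:46228380-46228679): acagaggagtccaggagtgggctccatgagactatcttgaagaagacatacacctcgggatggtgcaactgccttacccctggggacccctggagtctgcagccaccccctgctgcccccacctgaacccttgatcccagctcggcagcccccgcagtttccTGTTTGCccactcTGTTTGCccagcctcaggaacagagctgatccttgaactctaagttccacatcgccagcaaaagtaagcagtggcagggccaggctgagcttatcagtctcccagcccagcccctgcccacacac

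The promoter of 8 of the 9 measured genes was found by symbol, in 9 entries. GTTAAT was in the promoters of 2 genes (Afp and Alb), against 7.1% of all 32851 promoters of the same length. TGTTTGC was in those of 4 genes (Afp, Alb, Apoa1 and Apob), against 5.07% of all, and TATAAA in those of 3 (Afp, Apob and Apoa2), against 13.6%. The Apoa1 promoter holds TGTTTGC at 2 places, whose first bases are at -88 and -75 relative to the start site. A match is a description of letters and not a measured site.

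The design sets Dll3neo/neo against wild-type embryos to find genes disturbed by the mutation. Dll3 itself, on probe set 1449236_at, had 0.996, 1.013 and 0.941 in mutant replicates 1, 2 and 3, against 0.96, 1.004 and 1.028 in wild-type replicates 1, 2 and 3. Its groups overlapped (log2 difference -0.02, SE 0.0837), and since the place of this probe set relative to the mutation is not known here, the targeted gene did not check the genotype labels.

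No member passed the test of genotype: none of the 20 probe sets passed an adjusted p of 0.05 in limma (all adjusted p = 1), and none had an unadjusted p under 0.05, against 2.63% of all probe sets. Over all 22626 probe sets, 0% passed the adjusted threshold. The log2 difference (mutant minus wild-type) was positive for 6 member probe sets and negative for 14, with a median of -0.061, beside a median of 0.0034 over all probe sets. By gene, 2 of 9 were positive and 7 negative, with a median of -0.057, beside 51.9% of all genes positive and a median of 0.0035. When a score of each pool's sex mix entered the model (Xist level minus the mean level of 3 Y-linked genes, in log2 ratios), the median over the 9 genes was 0.101. That score was 0.045, 0.81 and 0.73 in the mutant pools, against -0.085, -1.48 and -1.73 in the wild-type pools, so it moved with genotype. The part of the sex mix in the member differences cannot be told apart from that of genotype. With 1 pool left out, the median over the 9 genes ran from -0.119 to 0.015, so its sign depended on single pools.

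**Figure D1:**
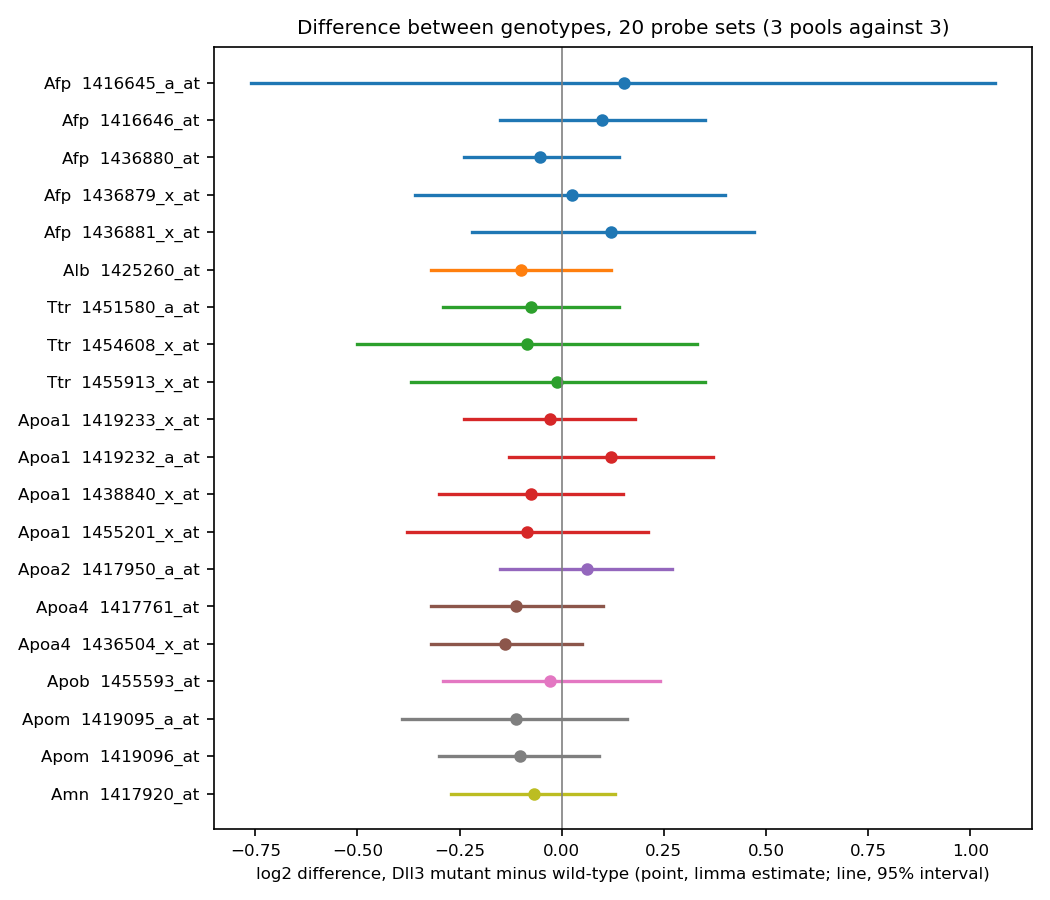
Log2 difference of each of the 20 probe sets, Dll3 mutant minus wild-type (x axis), with the limma estimate as a point and its 95% interval as a line, and probe sets grouped by gene (y axis). All 20 intervals cross 0, and the widest, of Afp 1416645_a_at, runs from -0.76 to 1.06.

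Afp encodes alpha-fetoprotein, the main plasma protein of the fetus and the classic product of the visceral endoderm. Its probe set 1416645_a_at had ratios of 1.102, 0.898 and 2.188 in mutant replicates 1, 2 and 3, against 0.83, 0.762 and 2.498 in wild-type replicates 1, 2 and 3. Both pools numbered 3, one of each genotype, were thus at more than 2, while the other 4 pools lay between 0.762 and 1.102. The genotypes overlapped, with means of 1.396 ± 0.693 in mutant and 1.36 ± 0.983 in wild-type pools (SD, n = 3 each). The log2 difference was 0.15 (SE 0.415, 95% interval -0.76 to 1.06), and its sign turned without mutant replicate 3 (-0.227), wild-type replicate 1 (-0.093) or wild-type replicate 2 (-0.154).

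The 2.498 of wild-type replicate 3 was the highest ratio of the deposited table. On that array the probe set ranked 1 of 22626 and on the array of mutant replicate 3 it ranked 2, whereas on the array of mutant replicate 1 it ranked 2601. Over the 6 pools its log2 ratio had an SD of 0.744, which ranked 3 among all probe sets, whose median SD was 0.119. The table holds 10 ratios above 2 outside the control probe sets, and this was the only probe set with more than 1 of them.

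The other 4 probe sets of Afp did not repeat this size. Probe set 1436879_x_at had 1.322, 0.933 and 1.013 in mutant replicates 1, 2 and 3, against 0.987, 0.865 and 1.392 in wild-type replicates 1, 2 and 3. Probe set 1436881_x_at had 1.305, 0.868 and 1.011 in the mutant pools, against 0.989, 0.8 and 1.125 in the wild-type pools. In both of these, mutant replicate 1 and wild-type replicate 3 were the high pools and mutant replicate 3 lay near 1, so they part from 1416645_a_at in a mutant pool. Names ending in _x_at mark probe sets in which some probes may also match other sequences, and those ending in _a_at mark probe sets shared by transcripts of 1 gene. Probe set 1416646_at ranged from 0.903 to 1.059 in mutant and from 0.814 to 1.057 in wild-type pools, with wild-type replicate 2 lowest. Probe set 1436880_at stayed within 0.959 to 1.043 in mutant and 0.987 to 1.077 in wild-type pools. Its log2 SD over the pools was 0.0666, and 88.7% of all probe sets had one at least as large. As the mean of its 5 probe sets, Afp differed by 0.07 between genotypes (SE 0.156, 95% interval -0.28 to 0.41, limma adjusted p = 1).

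**Figure D2:**
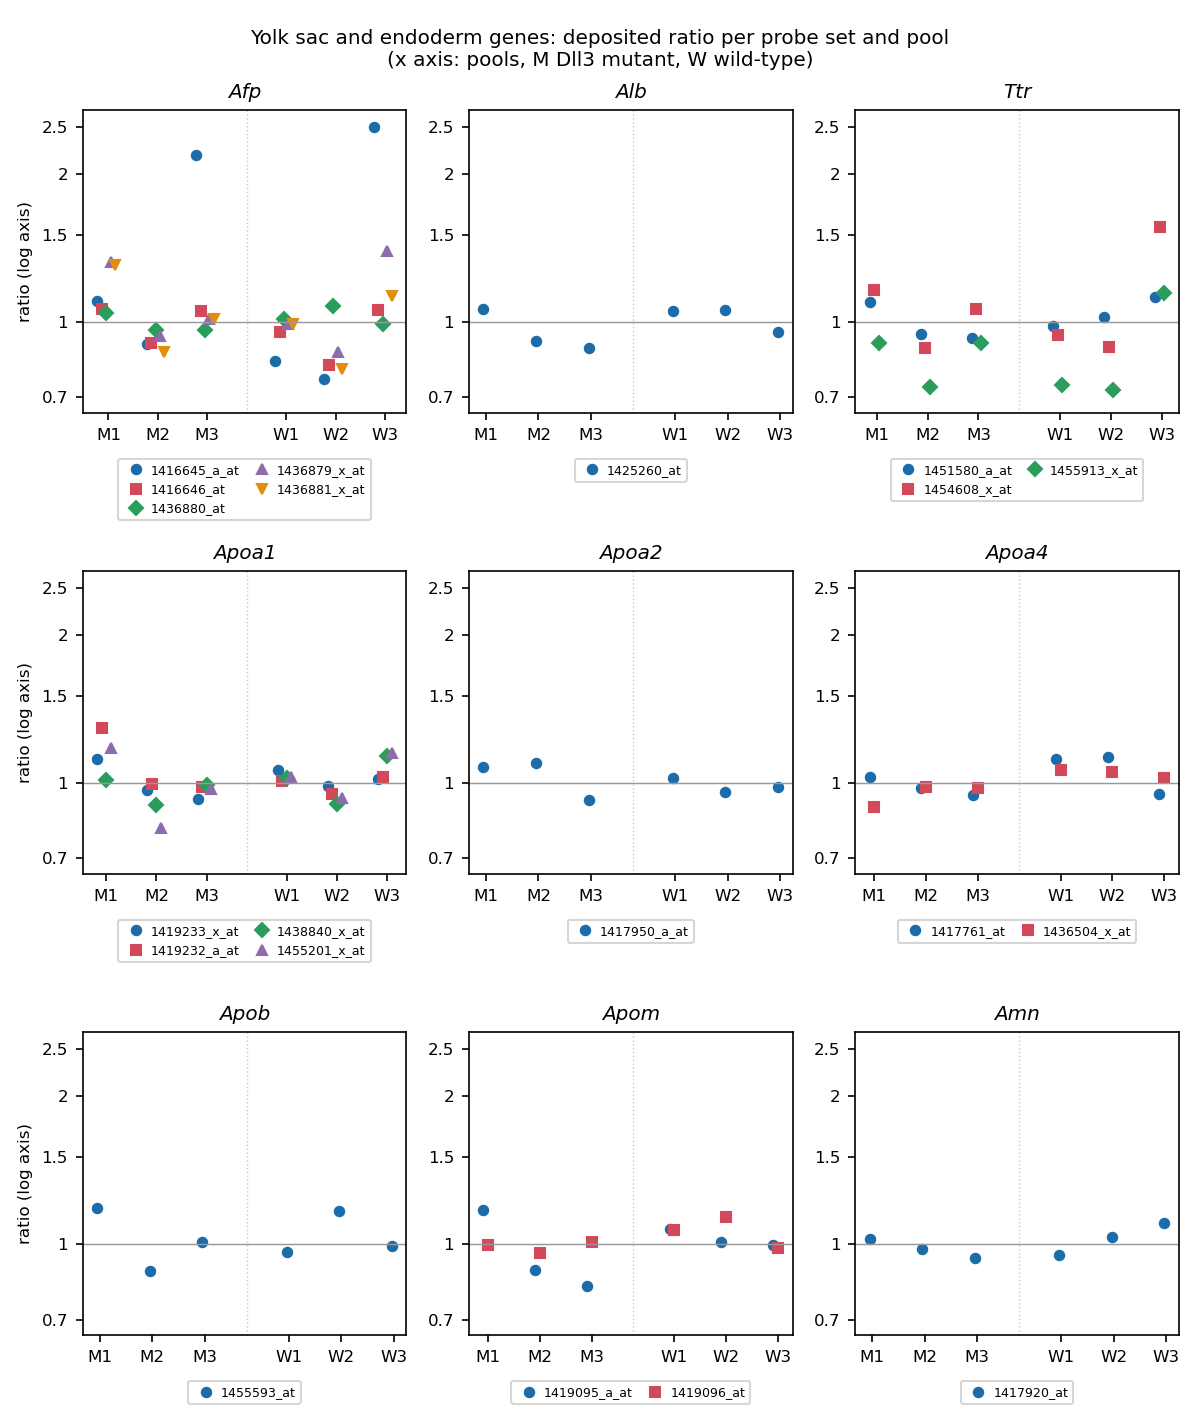
Deposited ratio (y axis, log scale) of every probe set in each pool (x axis, M1 to M3 for mutant and W1 to W3 for wild-type replicates 1 to 3), with 1 panel per gene and 1 symbol per probe set. Afp 1416645_a_at stands at 2.188 in M3 and 2.498 in W3, and Ttr 1454608_x_at at 1.56 in W3.

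Alb encodes albumin, the main plasma protein after birth, and lies next to Afp with no protein-coding gene between them. Its probe set had 1.063, 0.912 and 0.884 in mutant replicates 1, 2 and 3, against 1.049, 1.058 and 0.951 in wild-type replicates 1, 2 and 3. Within each genotype the pool numbered 3 was the lowest for Alb, where Afp 1416645_a_at had it highest. The log2 difference was -0.10 (SE 0.0984, 95% interval -0.32 to 0.12, limma adjusted p = 1).

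Ttr encodes transthyretin, the carrier of thyroid hormone and of retinol with its binding protein, made in visceral endoderm, liver and choroid plexus. Probe set 1454608_x_at had 1.158, 0.885 and 1.061 in mutant replicates 1, 2 and 3, against 0.939, 0.887 and 1.56 in wild-type replicates 1, 2 and 3. Wild-type replicate 3 stood clear of the other 5 pools, and mutant replicate 2 and wild-type replicate 2 were lowest. Probe set 1455913_x_at, whose median over the pools was below 1, had 0.904, 0.736 and 0.905 in the mutant pools, against 0.741, 0.726 and 1.144 in the wild-type pools. Wild-type replicate 3 was again the highest pool, and here the only one above 1. The third probe set, 1451580_a_at, had the same high pool at a smaller size (1.122), with 0.925 to 1.097 in the mutant pools. As the mean of 3 probe sets the difference was -0.06 (SE 0.14, 95% interval -0.37 to 0.25). Leaving out wild-type replicate 3 gave 0.118 and leaving out mutant replicate 2 gave 0.022, so either pool decides its sign.

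The apolipoproteins carry lipid in plasma. Apoa1, the main protein of high-density lipoprotein, had 4 probe sets, of which 3 gave small negative differences (-0.03, -0.07 and -0.08) and 1419232_a_at a positive one (0.12, SE 0.114). That probe set had 1.295, 0.994 and 0.979 in mutant replicates 1, 2 and 3, against 1.006, 0.949 and 1.028 in wild-type replicates 1, 2 and 3, so mutant replicate 1 alone was high. Probe set 1455201_x_at had 1.179, 0.807 and 0.971 in the mutant pools, against 1.029, 0.93 and 1.152 in the wild-type pools. Its highest pools were mutant replicate 1 and wild-type replicate 3, as for Afp 1436879_x_at, and its lowest was mutant replicate 2. As the mean of 4 probe sets Apoa1 differed by -0.02 (SE 0.0987, 95% interval -0.24 to 0.20, limma adjusted p = 1).

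Apoa4, an apolipoprotein of intestinal lipid transport, was the member of smallest p. Its probe set 1436504_x_at was the only 1 of the 20 whose genotypes did not overlap, with 0.892, 0.979 and 0.976 in mutant replicates 1, 2 and 3, against 1.059, 1.052 and 1.021 in wild-type replicates 1, 2 and 3. Such a split with the mutant pools lower was found in 3.39% of all probe sets, and with the mutant pools higher in 4.07%. The log2 difference was -0.14 (SE 0.0844, 95% interval -0.32 to 0.05), with a limma p of 0.129 that became an adjusted p of 1. The other probe set, 1417761_at, had 1.026, 0.974 and 0.945 in the mutant pools, against 1.117, 1.126 and 0.946 in the wild-type pools, where wild-type replicate 3 lay among the mutant values. As the mean of both, Apoa4 differed by -0.12 (SE 0.0749, 95% interval -0.29 to 0.04). It was the only 1 of 9 genes without overlap, a split with the mutant pools lower that 3.49% of all genes had.

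Apom, which carries sphingosine phosphate on lipoproteins, had 1.17, 0.885 and 0.821 in mutant replicates 1, 2 and 3 by probe set 1419095_a_at, against 1.072, 1.006 and 0.994 in the wild-type pools. The mutant pools lay on both sides of the wild-type ones, and the log2 difference was -0.11 (SE 0.125). Its probe set 1419096_at gave -0.10 (SE 0.0885). As the mean of both, Apom had 1.078, 0.919 and 0.909 in the mutant pools, against 1.068, 1.067 and 0.987 in the wild-type pools, with the pool numbered 3 lowest in each genotype, as in Alb.

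Apob, the structural protein of very low and low density lipoprotein, had 1.18, 0.879 and 1.01 in mutant replicates 1, 2 and 3, against 0.962, 1.166 and 0.99 in wild-type replicates 1, 2 and 3. The groups overlapped, with a log2 difference of -0.03 (SE 0.121, 95% interval -0.29 to 0.24). Apoa2, the second protein of high-density lipoprotein, had 1.074, 1.096 and 0.923 in the mutant pools, against 1.021, 0.957 and 0.979 in the wild-type pools. Its groups overlapped, and the difference of 0.06 (SE 0.0939, 95% interval -0.15 to 0.27) made it, with Afp, 1 of the 2 genes on the positive side.

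Amn encodes amnionless, the membrane partner that brings the receptor cubilin to the surface of visceral endoderm and kidney cells. It had 1.023, 0.977 and 0.937 in mutant replicates 1, 2 and 3, against 0.946, 1.034 and 1.103 in wild-type replicates 1, 2 and 3. The groups overlapped, and the difference was -0.07 (SE 0.0912, 95% interval -0.27 to 0.13). In the fit by gene Amn was at -0.07 (SE 0.0823). Cubn, which encodes cubilin, was at 0.15 (SE 0.0885) and Lrp2, which encodes the receptor megalin, at 0.03 (SE 0.0873). None of the 3 partners of this uptake complex passed, and the differences of Amn and Lrp2 were smaller than their SE.

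The members did not follow 1 shared order of pools. The highest pool was mutant replicate 1 for 8 of the 20 probe sets and wild-type replicate 3 for 7, against 17.4% and 21.8% of all probe sets. The lowest pool was mutant replicate 3 for 8, mutant replicate 2 for 5 and wild-type replicate 2 for 6, against 15.8%, 12.9% and 18.7% of all probe sets. Probe sets of 1 gene are not independent, and Afp and Apoa1 supply 9 of the 20. Both pools numbered 3 lay above the other 4 in 2 member probe sets (Afp 1416645_a_at and Ttr 1455913_x_at) and below them in 1 (Apoa4 1417761_at), against 15% and 10.3% of all probe sets, so 1416645_a_at stood out in size and not in its order of pools. For Ttr 1455913_x_at that order was nearly a tie, with 0.905 in mutant replicate 3 and 0.904 in mutant replicate 1. In spread over the pools, 11 of the 20 member probe sets were above the median SD of all probe sets, and 5 were among the 5% of largest SD: 3 of Afp and 2 of Ttr.

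The mean log2 profile of the 9 genes was 0.109, -0.097 and -0.049 in mutant replicates 1, 2 and 3, against -0.004, -0.001 and 0.092 in wild-type replicates 1, 2 and 3. The 6 genes most like it were taken by Pearson correlation over the 6 pools, among 8887 other genes that varied at least as much. These values are high by the choice itself and describe these 6 arrays, which the genes share. They were Hkdc1 (a hexokinase relative, r = 0.974, Spearman rho = 0.943), Mep1b (a subunit of the brush border protease meprin, r = 0.974, rho = 1), 0610040J01Rik (r = 0.971, rho = 0.886), Pla2g15 (a lysosomal phospholipase, r = 0.97, rho = 0.886), Mme (the membrane protease neprilysin, r = 0.948, rho = 0.886) and Gm33301 (r = 0.936, rho = 0.943). Without mutant replicate 1 and wild-type replicate 3, the 2 pools farthest from the median of the profile, r was 0.851 to 0.988 over the other 4 pools. Mep1b had 1.078, 0.885 and 0.924 in the mutant pools, against 0.996, 1.004 and 1.057 in the wild-type pools, and was at -0.09 between genotypes (SE 0.0885).

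The genes most like Afp, among 194 that varied as much, were Tmem243 (r = 0.915, rho = 0.886), Epcam (r = 0.91, rho = 0.771), Etaa1 (r = 0.908, rho = 1), Xrcc5 (r = 0.907, rho = 0.943), Usp33 (r = 0.863, rho = 0.829) and Smim8 (r = 0.86, rho = 0.943). Without wild-type replicates 3 and 2, the pools farthest from the median, r was 0.67 to 0.939. Epcam encodes an adhesion protein of epithelia, including gut endoderm and yolk sac endoderm. It had 1.12, 0.88 and 1.216 in mutant replicates 1, 2 and 3, against 0.801, 0.877 and 1.207 in wild-type replicates 1, 2 and 3, with both pools numbered 3 the highest, as in Afp. Xrcc5, which encodes a DNA repair protein found in all cells, also had both pools numbered 3 highest, at 1.294 in mutant and 1.27 in wild-type.

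Genes of epithelia and gut were followed as a list of 14, all measured. None passed in limma or had an unadjusted p under 0.05, and 11 were positive and 3 negative, with a median log2 difference of 0.113. That median was 0.043 without mutant replicate 1 and 0.195 with the sex score. Cdh1, the epithelial cadherin, had 0.988, 1.012 and 1.218 in mutant replicates 1, 2 and 3, against 0.585, 0.696 and 1.288 in wild-type replicates 1, 2 and 3. The groups overlapped because wild-type replicate 3 was the highest pool, and the difference was 0.41 (SE 0.234, limma adjusted p = 1). Leaving out wild-type replicate 1 gave 0.174, leaving out wild-type replicate 3 gave 0.743, and the sex score gave 1.035. Krt18, a keratin of simple epithelia, was at 0.21 (SE 0.153) with 1.216 and 1.214 in the mutant and wild-type pools numbered 3, and leaving out 1 pool gave 0.095 to 0.406. On the negative side Trh, a hormone gene of the early gut, was at -0.18 (SE 0.109) and Shh, a signal of gut epithelium, notochord and floor plate, at -0.13 (SE 0.0934). Both pools numbered 3 were above the other 4 in 4 of the 14 (Epcam, Cdh1, Krt18 and Shh), against 15.7% of all genes. The somite list had the same count, 4 of 12 (Meox1, Tcf15, Foxc1 and Foxc2), so this order of pools was also seen in genes of the tissue that was meant to be kept. Surface ectoderm shares most of the epithelial genes, and the part of either epithelium in the Afp values was not tested.

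**Figure D3:**
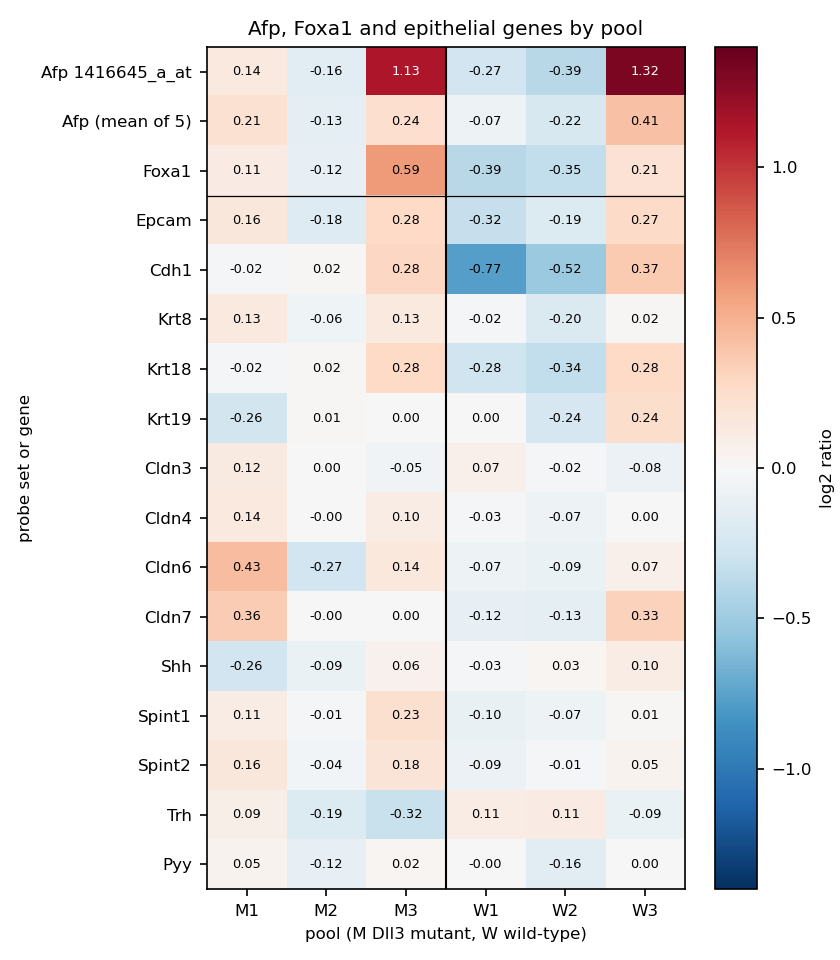
Log2 ratio (colour and printed number) of Afp, Foxa1 and the 14 epithelial and gut genes (rows) in each pool (columns, M1 to M3 mutant and W1 to W3 wild-type replicates). Afp 1416645_a_at is above 1 only in M3 and W3. Of the 14 genes, 4 (Epcam, Cdh1, Krt18 and Shh) also have their highest values there. Foxa1 does so too, as the only 1 of the 15 endoderm transcription factors measured.

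Transcription factors of endoderm were measured for 15 of 17 listed. None passed in limma or had an unadjusted p under 0.05, and 2 were positive and 13 negative, with a median of -0.069. Removal of mutant replicate 3 put that median at -0.032, removal of wild-type replicate 1 at -0.018 and removal of wild-type replicate 3 at -0.103. The sex score put it at -0.133. Both pools numbered 3 were above the other 4 in 1 of the 15 (Foxa1), against 15.7% of all genes. They were below the other 4 in 3 of the 15, against 1373 of all 12393 genes. Foxa1, a pioneer factor of endoderm that also acts in the floor plate, had 1.08, 0.92 and 1.507 in mutant replicates 1, 2 and 3, against 0.765, 0.787 and 1.154 in wild-type replicates 1, 2 and 3. The pools numbered 3 were the highest of their genotype, and the difference was 0.37 (SE 0.19, limma adjusted p = 1). Leaving out mutant replicate 3 gave 0.17, leaving out wild-type replicate 3 gave 0.56, and the sex score gave 0.675. Sox17, needed to form definitive endoderm and also active in vessels, was at 0.10 (SE 0.0926). Onecut1, a factor of liver and pancreas, was at -0.16 (SE 0.08) and Hhex, of foregut endoderm and blood vessel precursors, at -0.15 (SE 0.0903).

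Other products of visceral endoderm were measured for 21 of 22 listed, with 13 positive and 8 negative and a median of 0.033. The sign of that median was not stable, at -0.001 without wild-type replicate 3, -0.009 without both pools numbered 3 and -0.026 with array weights, and removal of mutant replicate 1 gave 0.006 and of mutant replicate 2 gave 0.011. None passed, and 4 had an unadjusted limma p under 0.05, against 2.67% of all genes. In 2 of the 21 both pools numbered 3 were above all other pools, and in 5 below them, against 1943 and 1373 of all 12393 genes. Rbp4, the retinol-binding protein that travels bound to transthyretin, had 1.272, 1.006 and 1.184 in mutant replicates 1, 2 and 3, against 0.944, 0.745 and 0.994 in wild-type replicates 1, 2 and 3. All 3 mutant pools lay above all 3 wild-type pools, as 3.98% of all genes did, and the difference was 0.37 (SE 0.122, limma adjusted p = 1), while that of its partner Ttr was -0.06. Apoe, an apolipoprotein also made by neural and blood-derived cells, was separated in the same direction at 0.20 (SE 0.081).

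Apoc1 and Apoc3, which encode small apolipoproteins that slow lipid uptake and lipolysis, went the other way, at -0.22 (SE 0.0863) and -0.21 (SE 0.0831), with adjusted p = 1 for each in limma. Apoc3 had 0.994, 0.928 and 0.935 in mutant replicates 1, 2 and 3, against 1.181, 1.133 and 1.006 in wild-type replicates 1, 2 and 3. It lies between Apoa1 and Apoa4 on chromosome 9. By gene, Apoc3 and Apoa4 had all mutant pools below all wild-type pools, as 3.49% of all genes did, while Apoa1 overlapped. Probe set 1417761_at of Apoa4 overlapped as well, and a link between these neighbours was not tested. Apoc1 and Apoe are also next to each other, on chromosome 7, and had opposite signs.

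Genes of lipid and iron uptake were measured for 13 of 15 listed. None passed in limma, and 1 (Pltp) had an unadjusted p under 0.05. There were 10 positive and 3 negative, with a median of 0.054, which was 0.091 without wild-type replicate 3 and 0.015 by the most variable probe set of each gene. Pltp, a lipid transfer protein of plasma, was at 0.25 (SE 0.0947) and the lipoprotein receptor gene Scarb1 at 0.11 (SE 0.0893). Lcat, the enzyme that esterifies plasma cholesterol, was at -0.16 (SE 0.0807) and the receptor gene Vldlr at -0.08 (SE 0.0693).

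Markers of other tissues of the region were set beside the members. Primitive erythroid genes, whose cells arise in the blood islands of the yolk sac, were positive for 12 of 15 (median 0.114), and their median log2 ratio was 0.029, 0.165 and 0.01 in the mutant pools, against -0.006, -0.045 and -0.114 in the wild-type pools. Removal of mutant replicate 2 put the median difference at 0.042, removal of wild-type replicate 3 at 0.047, removal of wild-type replicate 1 at 0.176, and the sex score at 0.012. The groups did not overlap for 5 of them with the mutant pools higher and for 1 with the mutant pools lower, against 3.98% and 3.49% of all genes. The members had a different order, with medians of 0.103, -0.13 and -0.058 in the mutant pools, against 0.03, 0.048 and -0.014 in the wild-type pools. Endothelial genes were positive for 8 of 13 (median 0.037), cardiac genes for 6 of 9 (median 0.039) and somite genes for 4 of 12 (median -0.056). Without both pools numbered 3 these medians were -0.04, 0.003 and -0.16. With 1 pool left out they ran from 0.006 (without mutant replicate 3) to 0.084 (without mutant replicate 1) for endothelial genes, from 0.012 (without wild-type replicate 2) to 0.109 (without wild-type replicate 1) for cardiac genes, and from -0.11 (without mutant replicate 3) to -0.022 (without mutant replicate 1) for somite genes. None of these 4 lists had a gene past the adjusted threshold in limma, and at an unadjusted p under 0.05 there were 5 of 15 erythroid genes and single genes of the others (1 of 13 endothelial, 1 of 9 cardiac and 1 of 12 somite genes), against 2.67% of all genes. The part of these tissues in the values of the members was not tested.

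**Figure D4:**
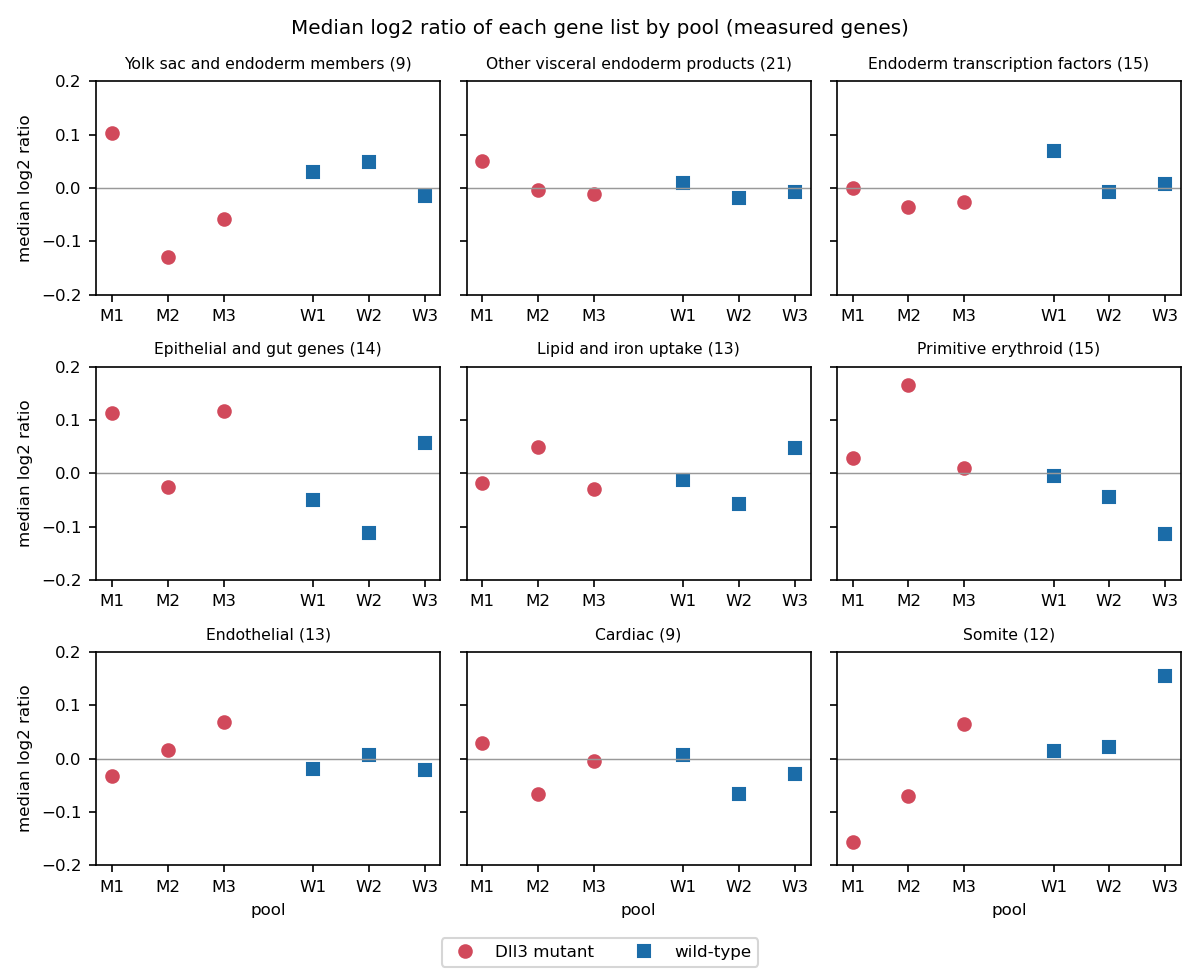
Median log2 ratio (y axis) of the measured genes of each list (1 panel per list, number of genes in brackets) in each pool (x axis), with circles for Dll3 mutant and squares for wild-type. The epithelial list is at 0.114, -0.026 and 0.117 in the mutant and at -0.051, -0.112 and 0.057 in the wild-type pools, and the members overlap between genotypes.

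The labels describe the pools as biological replicates, and the p-values rest on the spread of 3 arrays a group. Over all probe sets, log2 differences had a median SE of 0.0988, so differences of the size seen in most members were not detectable with this number of arrays.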

How the data were processed

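The deposited table holds 22690 probe sets by 6 pools, with columns matched to samples by their labels. Its values were read as linear ratios made by the authors against a reference of each probe set, since 93.4% of rows had a median of 1 (within 0.0015) over the 6 pools, 1497 had a lower median and 0 a higher one. Per the submitters' processing notes RMA and MAS5 were used, with no version and no role given for them. Scaling between arrays, aligner and build are not stated there. Signal levels are lost in a ratio, so noise of dim probe sets cannot be told from change.

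After removal of 64 control probe sets, log2 ratios of the remaining 22626 were fitted on genotype in R 4.3.3 by the lmFit and eBayes functions of limma 3.58.1, with no trend. Tests were two-sided, and a call needed a p below 0.05 after Benjamini-Hochberg adjustment. Only the 20380 probe sets that GEO's platform annotation ties to 1 gene were named, and the 691 with several genes and 1555 without a gene stayed unnamed. Of the 20380, 20351 were matched by gene identifier to RefSeq (GRCm38.p6) and took their symbols from it. RefSeq also gave gene order and promoters. A gene's value was the mean log2 ratio of its probe sets, over 12393 genes. Precision is limited by the number of arrays, and an exact permutation test of 3 pools against 3 cannot go below p = 0.1.

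The members and lists were chosen with earlier results of these data known. Named are all members, the 2 genes of largest positive and the 2 of most negative difference in each of 4 lists, and the 6 genes most like the members and the 6 most like Afp. The blood, vessel, heart and somite lists are given by counts. Cubn, Lrp2, Uncx and the somite genes named beside a count were chosen after their values were seen. The fit was run on simulated data with independent noise between pools and planted differences larger than that of any member. That run therefore does not bear on differences of the size seen in the members. Figures used matplotlib 3.10.9.

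Pools share replicate numbers across genotypes, without a label that pairs them. The numbers were not taken as pairs. Alternatives were the number as a block, a trend, array weights, quantile normalization, median centring, rows with a median below 1 removed, both pools numbered 3 left out, the sex score as a covariate, removal of probe sets whose names end in _x_at or _s_at, a trend with robust fitting, the most variable probe set per gene, an adjusted p under 0.1 and each pool left out in turn.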

Additional observations from a re-analysis of the deposited data

How the results depend on the processing

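The count of member probe sets and of member genes past an adjusted p of 0.05 in limma stayed at 0 under every alternative run, and also at an adjusted p of 0.1. At an unadjusted p under 0.05 it was 0, and 1 probe set without mutant replicate 1, without wild-type replicate 3 or without both pools numbered 3. Over all probe sets this last count was 595, while it was 267 after adding the sex score, 1770 after weighting arrays, 1072 with the replicate block, and between 319 and 1229 when a pool was removed. With the replicate block the SE of Afp 1416645_a_at was 0.109 in place of 0.415, its difference was 0.152 and its adjusted p 0.998. The block changed no call of a member. The deviations of same-numbered pools from their group means correlated at 0.368, -0.025 and 0.37 over probe sets for numbers 1, 2 and 3. Pools of different number had correlations from -0.427 to 0.197. Mutant replicates 1 and 3 thus correlated best with their own number and mutant replicate 2 with wild-type replicate 3 (0.147). Within a genotype the deviations of the 3 pools cancel out, so these correlations are tied to one another. No label pairs the pools, so the numbers were not used as pairs. What the pools numbered 1 or 3 may share was not tested. With the trend the SE of that probe set was 30.6. In the other lists 1 gene passed, Uncx of the somite list, with the replicate block, the trend, array weights or the robust fit with a trend, against 0 otherwise. The median of the members was 0.132 over probe sets and 0.101 over genes with the sex score, and with 1 pool left out it ran from -0.108 to 0.006 and from -0.119 to 0.015. Without both pools numbered 3 it was 0.02 over probe sets and 0.016 over genes.

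Many member differences lie near 0 and turned sign. With the sex score this was so for Afp 1436880_at (0.003), Apoa1 1419233_x_at (0.002) and 1455201_x_at (0.134), Apob (0.223), Amn (0.129), Ttr 1451580_a_at (0.146), 1454608_x_at (0.395) and 1455913_x_at (0.387), and the gene means of Apoa1 (0.101) and Ttr (0.309). Without both pools numbered 3 it was so for Apoa1 1419233_x_at (0.025) and its gene mean (0.056), Amn (0.016), Ttr 1451580_a_at (0.025), 1454608_x_at (0.15), 1455913_x_at (0.153) and its gene mean (0.109). Ttr 1455913_x_at also turned with array weights (0.049) and quantile normalization (0.022), the Apoa1 mean without _x_at and _s_at probe sets (0.12, which leaves 1 probe set), and Scarb1 by its most variable probe set (-0.027). With 1 pool left out the ranges that include both signs were -0.227 to 0.702, -0.001 to 0.187, -0.124 to 0.221 and -0.038 to 0.256 for Afp 1416645_a_at, 1416646_at, 1436879_x_at and 1436881_x_at, and -0.062 to 0.253 for the Afp mean. They were -0.107 to 0.027, -0.011 to 0.191, -0.158 to 0.005 and -0.223 to 0.051 for Apoa1 1419233_x_at, 1419232_a_at, 1438840_x_at and 1455201_x_at, and -0.112 to 0.051 for its mean. They were -0.136 to 0.076 for Apob, -0.235 to 0.172 and -0.125 to 0.203 for Ttr 1454608_x_at and 1455913_x_at, and -0.149 to 0.118 for the Ttr mean. Among the other lists, the endothelial median turned sign without both pools numbered 3 (-0.04), with the sex score (-0.001) and by the most variable probe set (-0.036), which also gave 0.001 for visceral endoderm products and 0.086 for cardiac genes. Leaving Afp 1416645_a_at out of the Afp mean, chosen after seeing the data, gave 0.048. The cause of these changes was not tested. Signal over background could not be read from ratios.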

Other observations

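Trf encodes transferrin, the iron carrier of plasma, and was represented by probe set 1425546_a_at, which is annotated to 2 genes, Trf and Srprb (a subunit of the signal recognition particle receptor), so its value cannot be given to either. It had 0.878, 0.962 and 1.022 in mutant replicates 1, 2 and 3, against 1.202, 1.326 and 0.978 in wild-type replicates 1, 2 and 3. The means were 0.954 ± 0.0723 in mutant and 1.17 ± 0.176 in wild-type pools (SD, n = 3 each). The log2 difference was -0.28 (SE 0.118, 95% interval -0.54 to -0.02), with a limma p of 0.0346 and an adjusted p of 1. Wild-type replicate 3 lay among the mutant values.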
